A study of Mus musculus with 3 samples.

Results

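The genes described here encode 5 costimulatory and checkpoint proteins, called ligands below, by which macrophages and dendritic cells exchange signals with T cells: Cd83, Cd86, Cd40, Cd80 and Cd274. They were chosen by name out of the 30406 genes measured in every library. Their transcripts were counted as UMIs, unique molecular identifiers that mark single captured transcripts, in droplet-based single-cell RNA sequencing of cells sorted from mouse hearts as CD45+F4/80+CD11b+. All mice were wild type and 32 to 34 weeks old. The diets were a high fat diet (HFD), a Western diet (WD) and a control diet (CD), with 1 library each. How many mice a library holds, whether animals were pooled, and what the diets contained are points not given in the sources used here. No difference between diets therefore has a replicate check, and intervals given for levels, shares and ratios are 95% intervals that cover counting error only.

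CD80 and CD86 on an antigen-presenting cell bind CD28 on T cells, which adds the costimulatory signal to antigen recognition, and the same ligands bind CTLA4, which restrains the response. CD40 receives the CD40 ligand of activated T cells and signals through TRAF proteins to NF-kB, which in turn raises costimulatory ligands. PD-L1, the product of Cd274, binds PD-1 on T cells and dampens them, and its gene is a classical target of interferon gamma. CD83 is a maturation marker of dendritic cells that keeps CD86 and MHC class II proteins at the surface by opposing the ubiquitin ligase MARCH1. In the heart, macrophages that carry MHC class II and the monocyte receptor CCR2 are known as the inflammatory, monocyte-replenished fraction, while CCR2-negative macrophages are largely long-lived residents.

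In the GENCODE vM21 annotation of GRCm38, Cd40 lies at chr2:165055627-165072948, Cd83 at chr13:43784775-43803132, Cd80 at chr16:38455561-38496335 and Cd274 at chr19:29367455-29388095, all on the plus strand, and Cd86 at chr16:36603869-36666081 on the minus strand. None of the 5 overlaps another annotated gene. The 250 bases before the RefSeq start (GRCm38.p6) were matched for 2 of the 5, Cd80 and Cd274. No window was available for Cd83, Cd86 and Cd40, so only these are printed. The letters of interferon and NF-kB motifs can be looked for in them. Both members reached their highest WD levels outside macrophages, as did Cd40. The Cd80 window is chr16:38458683-38458932 and lies within the GENCODE gene, since RefSeq starts this gene later. The Cd274 window is chr19:29367188-29367437, and both are on the plus strand. Capitals mark motif matches.
Cd80: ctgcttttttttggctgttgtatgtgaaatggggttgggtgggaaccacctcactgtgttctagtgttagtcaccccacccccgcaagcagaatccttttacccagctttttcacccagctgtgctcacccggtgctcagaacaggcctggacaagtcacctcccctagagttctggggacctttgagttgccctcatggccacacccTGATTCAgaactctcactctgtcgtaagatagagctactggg
Cd274: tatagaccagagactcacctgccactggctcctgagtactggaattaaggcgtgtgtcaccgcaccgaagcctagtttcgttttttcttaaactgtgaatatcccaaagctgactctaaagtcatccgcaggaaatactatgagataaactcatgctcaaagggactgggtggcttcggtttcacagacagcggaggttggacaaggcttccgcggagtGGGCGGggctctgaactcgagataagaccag
The motifs searched, 5 in all, on both strands and with the sequences in view, were TTCNNNGAA (the STAT site), the core of the interferon-stimulated response element, the NF-kB consensus, TGANTCA (the AP-1 site) and GGGCGG (the GC box). The Cd80 window held TGATTCA, which matches TGANTCA, 42 bases before the start, and the Cd274 window held GGGCGG 31 bases before it. Of 32851 RefSeq windows of this length, 6.75% held TGANTCA and 32.7% held GGGCGG. The other motifs were found in neither window, against 7.02% of all windows for TTCNNNGAA, 2.98% for the interferon-stimulated element and 5.93% for the NF-kB consensus.

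A barcode counted as a cell from 1000 UMIs and 200 genes upwards if no more than 10% of its UMIs were mitochondrial, which gave 2717 HFD, 4775 WD and 2679 CD cells. Macrophages were taken as cells in which the complement genes C1qa, C1qb and C1qc together made up at least 0.3% of UMIs, here called C1q-above cells. They numbered 2002 in HFD (73.7% of cells), 3717 in WD (77.8%) and 2293 in CD (85.6%), with medians of 2954, 12242 and 4319 UMIs. Each of 12 macrophage and sort markers, C1qa, C1qb and C1qc among them, had UMIs in them in every library. The same 12 also had UMIs in the cells under the threshold, so their detection does not set the classes apart. The WD files come from another software version (7.2.0) than the HFD and CD files (3.0.1), and the sources used here do not say whether reads in introns were counted. WD values are therefore given as values of that library and not as an effect of the diet. The libraries also differ in their barcodes: 92 of the 6885 WD barcodes (1.34%) occur in the full barcode list of the CD files, which the HFD files list in whole, although the labels name the same kit for all. The HFD and CD libraries shared 15 cell barcodes, WD and CD shared 1, and WD and HFD shared 0. In C1q-above cells, markers of other cell types summed to 424 CPM (a gene's UMIs scaled to the same total in each class of cells) in HFD, 31.1 in WD and 260 in CD for endothelial cells, and to 122, 1205 and 816 CPM for neutrophils. Cells with at least 3 markers of another class made up 4.05%, 16.8% and 11.2% of C1q-above cells.

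All 5 ligands had UMIs in the C1q-above cells of every library, although Cd274 in HFD lay under the level of near-empty barcodes and was low in CD. Cd83 stood at 238 CPM (227 to 250) in HFD, 2129 (2117 to 2141) in WD and 255 (246 to 264) in CD. Cd86 stood at 128 CPM (119.9 to 137), 1059 (1051 to 1067) and 171 (163 to 178) in the same order. WD was far above the other libraries for both genes, and HFD and CD lay close together. Cd40, the receptor of the set, had 15.8 CPM (12.9 to 19.1) in HFD, 77.0 (74.8 to 79.3) in WD and 30.2 (27.1 to 33.6) in CD. Cd80, the second CD28 ligand, had 14.9 CPM (12.1 to 18.1), 69.0 (66.9 to 71.1) and 14.0 (12.0 to 16.4). Cd274 had 1.21 CPM in HFD from 8 UMIs, 42.7 in WD from 2555 and 3.25 in CD from 37. The values had the order WD, CD, HFD for every gene but Cd80. The HFD and CD intervals overlapped for Cd80 and for Cd83, and the Cd274 order of these libraries rests on 8 HFD UMIs.

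**Figure D1:**
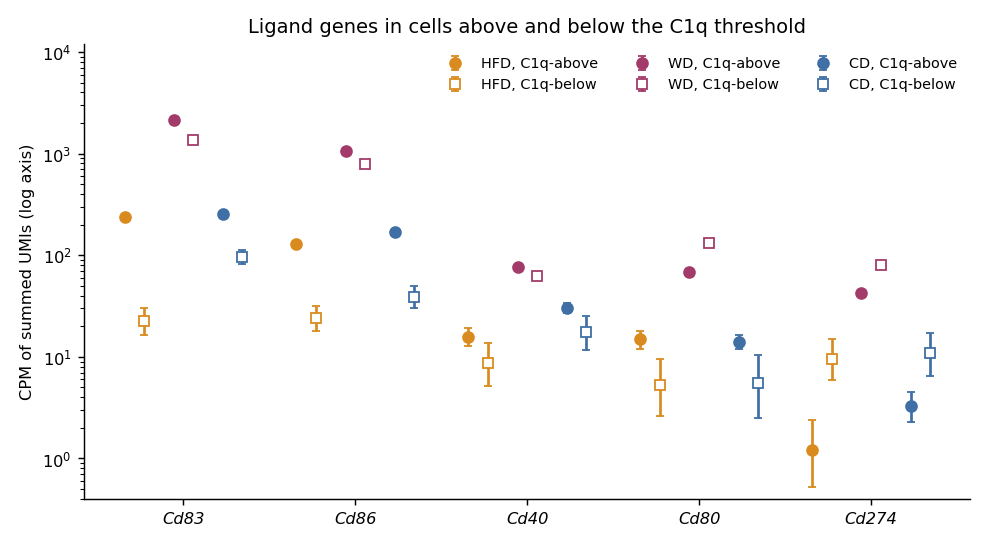
Level of each ligand in C1q-above cells (filled circles) and in cells under the C1q threshold (open squares), per library. Levels are in CPM on a log axis with exact Poisson 95% intervals. Among the filled circles, WD lies highest for all 5 genes. Cd40 has their widest gap between HFD and CD among genes with more than 100 UMIs in each.

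Shares of cells with a UMI gave the same order of libraries for Cd83 and Cd86. After each cell was thinned to 1000 UMIs, Cd83 was found in 21.1% of HFD, 76.1% of WD and 21.6% of CD C1q-above cells, and without thinning in 41.2%, 97.7% and 53.5%. Cd86 was found in 11.3%, 56.7% and 16.6% after thinning and in 31.2%, 95.9% and 49.98% without it. Cd40 was found in 1.60%, 6.73% and 2.31%, Cd80 in 1.60%, 6.32% and 1.31%, and Cd274 in 0.20%, 3.42% and 0.0436% of thinned cells. The unthinned shares were 4.45%, 47.0% and 12.5% for Cd40, 4.65%, 42.3% and 6.59% for Cd80, and 0.350%, 22.3% and 1.48% for Cd274.

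Endothelial-marked cells, a type not known for Cd83, Cd86 or Cd80, gave the background in HFD (520 cells, median 1850 UMIs) and CD (201 cells, median 2685). There Cd83 was found in 0.577% of HFD and 1.49% of CD thinned cells and Cd86 in 0.577% and 0.498%, far under the shares of C1q-above cells. Cd80 was found in no endothelial-marked cell after thinning, which allows shares of up to 0.577% and 1.49%, and its CD share in C1q-above cells lay within that limit. Endothelial cells are known to carry CD40 and PD-L1 themselves, so for those genes the shares are no level of free RNA. Cd40 was found in 1.35% and 1.99% of them, near its share in C1q-above cells, and Cd274 in 1.73% and 0.995%, above it. In CPM, endothelial-marked cells held Cd40 at 10.6 in HFD and 20.6 in CD (13 UMIs each) and Cd274 at 16.3 in HFD (20 UMIs) and 20.6 in CD (13 UMIs).

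Near-empty barcodes with 10 to 100 UMIs, which hold free RNA, carried Cd83 at 84.6 CPM in HFD and 112 in CD, Cd86 at 45.3 and 57.8, Cd40 at 8.51 and 12.2, Cd80 at 9.01 and 5.78, and Cd274 at 2.0 and 0.680. Each gene was lower there than in the C1q-above cells of the same library except Cd274 in HFD, which is read as background. For WD, 36 fibroblast or mural cells gave the background, with Cd83 at 64.3 CPM and the other 4 genes at 3.78 to 13.2 CPM. WD files hold no barcodes of fewer than 504 UMIs, and no near-empty level was taken from them.

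The transcripts were spread unevenly over cells. The single cell with the most Cd83 UMIs held 12 in HFD, 258 in WD and 40 in CD, and the tenth of C1q-above cells with the most held 49.9%, 32.5% and 44.8% of all Cd83 UMIs. For Cd86 the highest cell held 5, 170 and 7 UMIs. After thinning, 69.2% of HFD, 11.4% of WD and 63.0% of CD C1q-above cells showed none of the 5 ligands, and 4.40%, 43.9% and 4.80% showed 2 of them. Cells with 3 ligands were 0.30%, 7.35% and 0.0436%, and the WD library held 1 cell with all 5.

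Set against CD, the HFD library shows the ligands under a high fat diet. Cd40 and Cd274 were lower in HFD, Cd86 was slightly lower, and Cd83 and Cd80 lay near equality. Cd40 was 1.92-fold lower in HFD (1.53 to 2.41), from 104 against 344 UMIs, and the Cd274 ratio was 0.373 (0.150 to 0.814), from 8 against 37 UMIs, with the HFD level at background. Cd86 had a ratio of 0.753 (0.694 to 0.817), Cd83 of 0.935 (0.879 to 0.995) and Cd80 of 1.06 (0.814 to 1.37). At the limit of 1.5-fold with an interval that leaves out 1, 2 of 5 members were lower and 0 higher in HFD, where 5.85% of 11239 genes with at least 20 UMIs were lower and 4.38% higher. The median of those genes was -0.03 on the log2 scale and that of the members -0.41.

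The Cd40 ratio was 0.507 without cells that carry markers of another class and 0.495 without the highest doublet scores, but 0.700 (0.446 to 1.08) when cells were thinned before summing. The same thinning left Cd274 with a ratio of 5.70 (0.638 to 269), from so few UMIs that no direction can be read for it. Within macrophage subsets, defined by a Ccr2 UMI and by H2-Aa at 0.3% of UMIs or more (H2-Aa high), Cd40 kept a ratio under 1. It was 0.498 (0.334 to 0.732) in H2-Aa high cells without Ccr2, 0.456 (0.310 to 0.656) in H2-Aa low cells without Ccr2 and 0.751 (0.462 to 1.19) in H2-Aa high cells with Ccr2. Cd83 and Cd86 had their smallest ratios in the last of these, at 0.608 (0.522 to 0.707) and 0.628 (0.518 to 0.758). In cells without Ccr2 their ratios were 0.841 and 0.706 at high H2-Aa and 0.985 and 0.719 at low H2-Aa. No test of the difference between subsets is possible with 1 library per diet. The fixed H2-Aa cut also falls at different places: the median H2-Aa share of C1q-above cells was 1.04% in HFD, 0.309% in WD and 0.413% in CD. Subsets of the same name can therefore differ in H2-Aa level between libraries.

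All 5 ligands were higher in the WD library than in the others. The ratio of WD to CD was 8.36 (8.05 to 8.67) for Cd83, 6.21 (5.94 to 6.50) for Cd86, 2.55 (2.28 to 2.85) for Cd40, 4.91 (4.19 to 5.79) for Cd80 and 13.1 (9.51 to 18.7) for Cd274. The ratio of WD to HFD was 8.94, 8.25, 4.88, 4.64 and 35.2, and the last rests on 8 HFD UMIs. With the C1q limit at 1% in place of 0.3%, the ratios of WD to CD were 1.67 for Cd40 and 3.01 for Cd80, and those of WD to HFD 3.23 and 3.07. The Cd274 ratio of WD to CD was 90.3 (16.0 to 3592) with thinned cells, and that of WD to HFD ran from 15.9 with thinned cells to 64.1 with mitochondrial UMIs of at most 5%. So 5 of 5 members were past 1.5-fold in each comparison, both of which use the same WD library, where 43.4% of 14467 genes were higher in WD than in CD (25.3% lower) and 40.5% of 14412 were higher in WD than in HFD (23.9% lower). Genes past the limit were common in both comparisons, and the count is read against that. The median of all genes was 0.30 (log2) for WD over CD, and relative to it the members stood at 2.76 for Cd83, 2.34 for Cd86, 1.05 for Cd40, 2.0 for Cd80 and 3.42 for Cd274. Scaling by TMM in place of totals moved that median to 0.04.

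The ratio of WD to CD moved with the intron length of genes. Over quintiles of intron length from shortest to longest, the median log2 ratio was -0.72, -0.43, 0.05, 0.83 and 1.99 for WD over CD, against -0.07, -0.06, -0.04, -0.01 and 0.01 for HFD over CD. Cd40, Cd83 and Cd274 have 13916, 15786 and 17019 intron bases and fall in the third quintile, where 117 of 2691 genes were at least 8-fold higher in WD. Cd80 and Cd86 have 37072 and 58552 intron bases and fall in the fourth quintile, where 181 of 2691 genes were. Each ligand lay above the median of its quintile, Cd40 least at 1.35 and Cd83 at 3.06 on the log2 scale. The part of intron counting, software, barcode set and depth in the WD ratios was not tested, and none of them can be told apart from diet here.

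**Figure D2:**
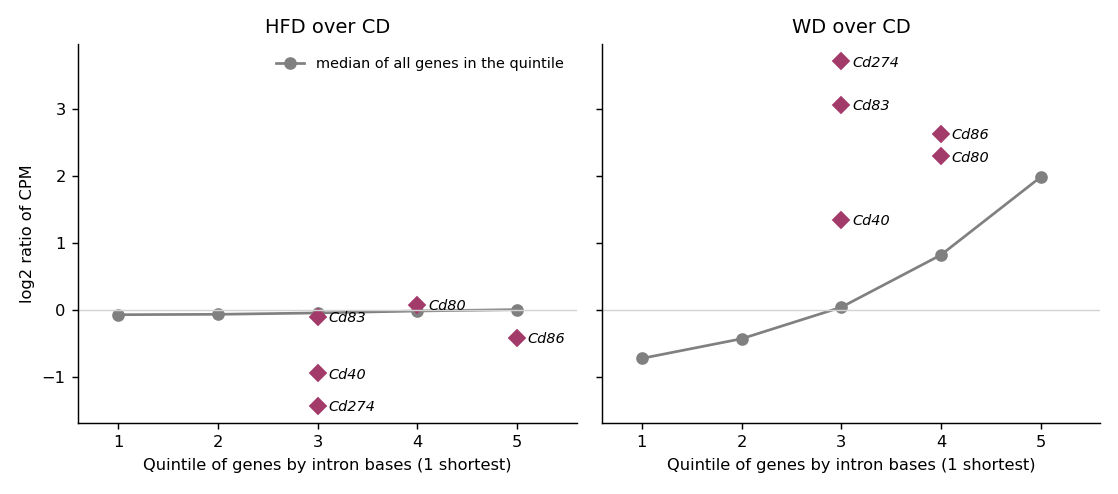
Median log2 ratio of all genes by quintile of intron length, for HFD over CD and WD over CD, with the 5 ligands as points at their own quintiles. The WD medians climb with intron length and the HFD medians stay near 0, while for WD over CD each ligand lies above the median of its quintile.

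Cells under the C1q threshold, 715 in HFD, 1058 in WD and 386 in CD, were a mixture. Endothelial-marked cells made up 72.7% of them in HFD and 52.1% in CD, while in WD 526 (49.7%) were macrophage-marked and the rest several leukocyte classes and others. Cd83 and Cd86 were higher in C1q-above than in C1q-below cells of every library. The Cd83 ratio was 10.6 in HFD, 1.55 in WD and 2.63 in CD, and the Cd86 ratio 5.35, 1.33 and 4.38. Cd40 also lay above 1, at 1.82, 1.22 and 1.71. Cd80 was 2.81 and 2.57 in HFD and CD but 0.525 in WD, and Cd274 was under 1 in all, at 0.126, 0.530 and 0.297. Endothelial markers summed to 424 CPM in HFD, 31.1 in WD and 260 in CD C1q-above cells, against 15652, 55.7 and 12733 CPM in C1q-below cells, and NK cell markers to 3.03, 61.4 and 9.92 CPM against 63.8, 1576 and 83.3 CPM. Their part in these ratios was not tested.

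Between libraries, C1q-below cells held Cd83 at 22.6 CPM in HFD, 1372 in WD and 96.7 in CD, and Cd86 at 24.0, 794 and 38.9 CPM. Of HFD over CD, 3 of 5 members were past 1.5-fold and lower, Cd83 with a ratio of 0.233 (0.165 to 0.325), Cd86 with 0.616 (0.417 to 0.907) and Cd40 with 0.490 (0.256 to 0.912), where 7.68% of 9822 genes were lower and 8.94% higher. Near-empty barcodes of HFD and CD held more Cd83 (84.6 and 112 CPM) and Cd86 (45.3 and 57.8 CPM) than these C1q-below cells. Cd40 in HFD C1q-below cells, at 8.64 CPM, lay near the 8.51 CPM of near-empty barcodes. These HFD levels are read as background, and no direction is read from the 3 ratios. In WD all 5 were higher, with ratios to CD from 3.57 for Cd40 to 24.0 for Cd80 (35.9% of 12865 genes higher, 29.2% lower) and ratios to HFD from 7.29 for Cd40 to 60.8 for Cd83 (38.3% of 13021 genes higher, 30.4% lower). The make-up of the C1q-below cells differed between libraries, as the marker sums show, and these ratios compare mixtures.

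The difference between C1q-above and C1q-below cells, and not that between diets, was tested against the spread between libraries. The test was edgeR's quasi-likelihood test on UMIs summed per library and class, with the library as a block. Benjamini-Hochberg adjustment was over all genes. Here 993 of 13494 genes passed an adjusted p of 0.05 (2.99% higher and 4.37% lower), 3667 had an unadjusted p under that level, and 0 of 5 members passed. The log2 fold changes were 2.0 ± 0.59 (SE) for Cd83 (adjusted p = 0.113), 1.90 ± 0.46 for Cd86 (0.0782), 0.87 ± 0.20 for Cd40 (0.0678), 0.64 ± 0.58 for Cd80 (0.551) and -1.37 ± 0.40 for Cd274 (0.112). The count depended on the libraries, the tool and the limits. Without WD 3791 of 11333 genes were called (1744 higher, 2047 lower), and all 5 members were among them. Cd83 was at 2.55 (edgeR adjusted p = 0.00319), Cd86 at 2.52 (4.74e-05), Cd40 at 1.06 (0.00737), Cd80 at 1.69 (0.00385) and Cd274 at -1.99 (0.0117). With all libraries DESeq2 called 2383 of 21559 genes, 4 members among them, Cd83 (adjusted p = 0.00516), Cd86 (0.00153), Cd40 (0.0474) and Cd274 (0.0270). With C1q at 0.1% edgeR called 1636 of 13220 genes, Cd83 (adjusted p = 0.0447), Cd86 (0.0286) and Cd40 (0.0309) among them. With no filter on low counts edgeR called 1517 of 21559 genes, with Cd86 (adjusted p = 0.0436) the member among them. Without cells that carry markers of another class it called 1177 of 11665, with Cd83 (0.0239) the member among them. Without HFD or CD no gene was called by edgeR, and 1700 and 2125 genes had an unadjusted p under 0.05 when CD and HFD were left out in turn.

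The WD C1q-below cells hold enough leukocytes to describe the ligands by class, from markers of each class in single cells. In 526 macrophage-marked cells under the threshold, Cd83 stood at 1877 CPM and Cd86 at 1008, close to the C1q-above cells of that library. In 58 conventional dendritic-marked cells Cd83 was 1234 CPM, Cd86 633, Cd80 253 and Cd40 102 (83.4 to 122). Cd80 was highest in 78 neutrophil-marked cells, at 405 CPM (347 to 470), and those cells held Cd274 at 217 CPM (175 to 265). Among classes of at least 20 cells, Cd274 was highest in 25 B-marked cells, at 553 CPM (471 to 645). NK-marked cells (157) were low in all but Cd274, with Cd83 at 222 CPM, Cd86 at 138, Cd40 at 9.78, Cd80 at 5.33 and Cd274 at 54.2. Monocyte-marked cells (50) held Cd83 at 473 CPM, Cd86 at 755 and Cd80 at 187. Cd80, Cd274 and Cd40 reached their highest WD levels outside the C1q-above cells, where they stood at 69.0, 42.7 and 77.0 CPM. The dendritic-marked cells of HFD (28) held Cd83 at 32.4 CPM and Cd86 at 54.0, and those of CD (17) held 340 and 97.0 CPM. Cells with markers of mature dendritic cells, in which CD83 is classically described, numbered 1 in HFD, 2 in WD and 3 in CD and held Cd83 at 1189, 1661 and 1283 CPM.

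**Figure D3:**
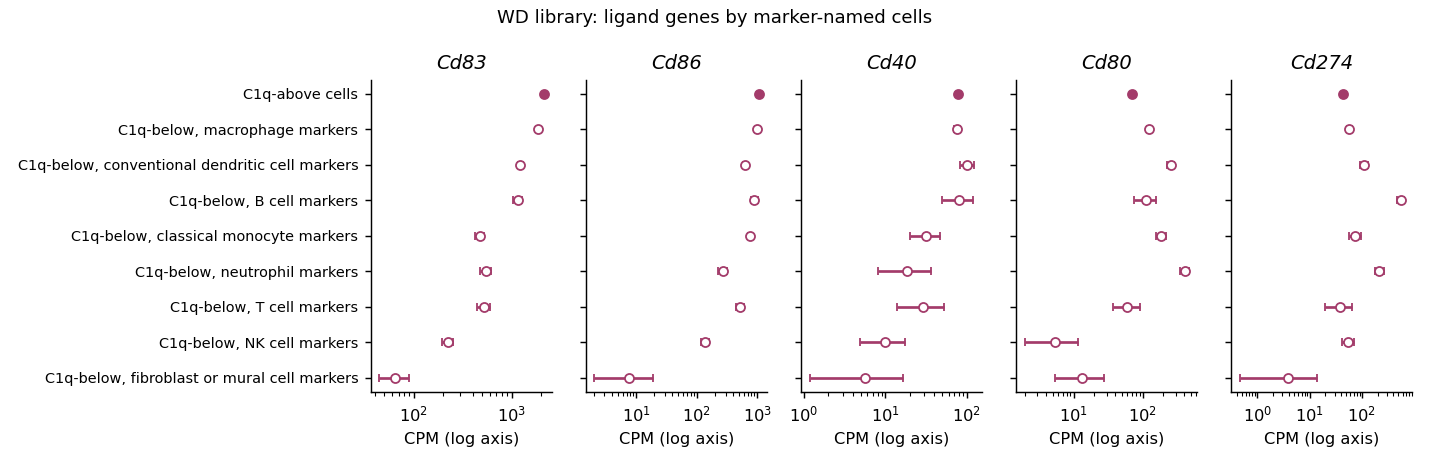
Level of the ligands in C1q-above cells (filled) and in marker-named C1q-below cells (open) of the WD library, in CPM on a log axis, with exact Poisson 95% intervals. Of the classes drawn, Cd80 peaks in neutrophil-marked cells at 405 CPM, Cd274 in B-marked cells at 553 CPM and Cd40 in conventional dendritic-marked cells at 102 CPM. Cd83 and Cd86 are highest in the C1q-above cells.

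Within the C1q-above cells, Cd83 and Cd86 were highest in 1 subset of every library, the H2-Aa high cells without a Ccr2 UMI. There Cd83 stood at 317 CPM in HFD, 2794 in WD and 377 in CD, against 133, 1982 and 219 CPM in H2-Aa high cells with Ccr2 and 218, 1897 and 222 CPM in H2-Aa low cells without Ccr2. Cd86 stood at 158, 1242 and 223 CPM there, against 85.9, 939 and 137 with Ccr2 and 124, 1037 and 172 at low H2-Aa. The top subset did not overlap these other 2 in the counting intervals of any library. The share of all genes with such a gap was not counted, so this describes Cd83 and Cd86 only. The subsets held 985, 1263 and 661 cells (H2-Aa high without Ccr2), 385, 616 and 582 cells (H2-Aa high with Ccr2) and 618, 1640 and 993 cells (H2-Aa low without Ccr2). The fourth subset, H2-Aa low with Ccr2, held 14, 198 and 57 cells, with Cd83 at 121, 1670 and 160 CPM and Cd86 at 91.0, 986 and 116 CPM. Its HFD values rest on 8 Cd83 and 6 Cd86 UMIs, which leaves its place under the top subset unsettled for Cd86 there.

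**Figure D4:**
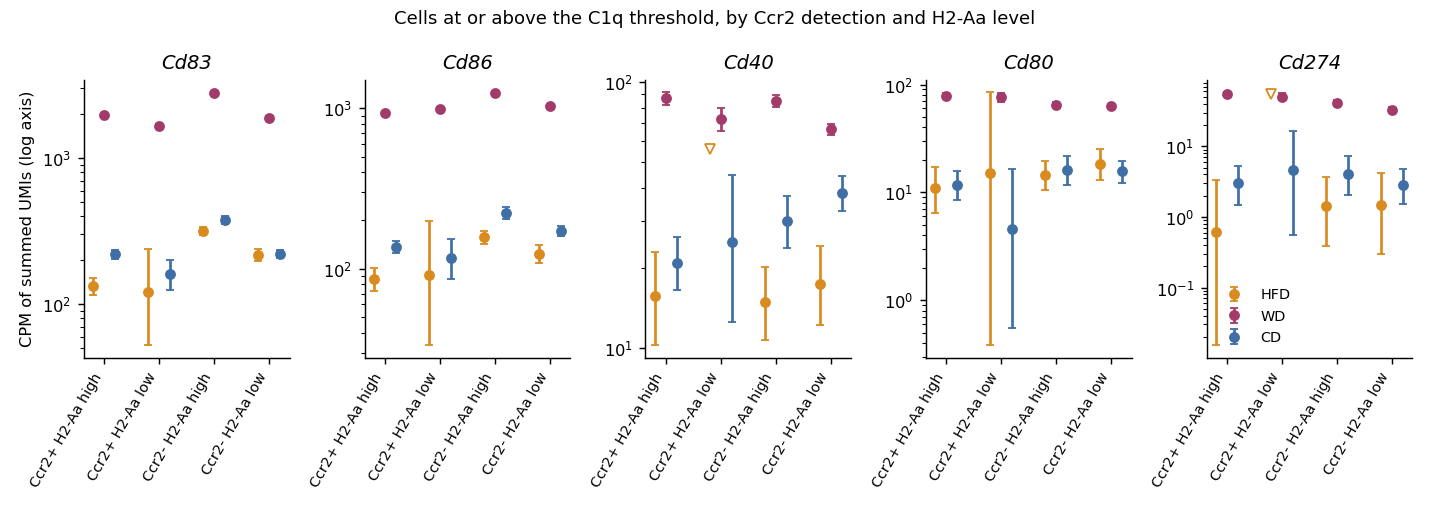
Level of the ligands in 4 subsets of C1q-above cells per library, in CPM on a log axis with exact Poisson 95% intervals, and open triangles for the upper limit where no UMI was found. Cd83 and Cd86 peak in H2-Aa high cells without Ccr2 in each library, and no such order is shared by the other genes.

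H2-Aa high cells were compared with H2-Aa low cells over the 3 libraries, which asks whether the ligands follow MHC class II. Cd83 stood at 249, 2380 and 285 CPM in H2-Aa high cells of HFD, WD and CD, against 215, 1853 and 216 CPM in H2-Aa low cells. In edgeR's test 1865 of 11869 genes passed (8.62% higher, 7.09% lower), and 3 of 5 members were among the higher ones. Cd83 rose by 0.45 ± 0.06 (log2, SE; adjusted p = 0.00056), Cd274 by 0.46 ± 0.12 (0.0225) and Cd86 by 0.19 ± 0.06 (0.0479), while Cd40 was at 0.09 ± 0.16 (0.801) and Cd80 at 0.09 ± 0.11 (0.685). Cd83 kept its call without each library in turn and lost it with H2-Aa high set at 1% of UMIs (edgeR adjusted p = 0.30). The Cd86 call was lost without any 1 library, at log2 fold changes of 0.15, 0.20 and 0.22 without HFD, WD and CD (edgeR adjusted p = 0.174, 0.142 and 0.196). It was also lost with RLE size factors (edgeR adjusted p = 0.0907), thinned cells (0.0743) and H2-Aa high set at 1% (0.544), and in DESeq2 (0.130). The Cd274 call rests on WD, without which the log2 fold change was 0.22 (edgeR adjusted p = 0.849). It was also lost in DESeq2 (adjusted p = 0.791), with thinned cells (edgeR adjusted p = 0.579) and without the highest doublet scores (0.0584), and turned to -0.17 with H2-Aa high set at 1% (0.697).

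The same comparison was made among cells without a Ccr2 UMI, and the difference between this fit and the one above was not tested. Here 1484 of 11063 genes passed edgeR's test (7.45% higher, 5.97% lower), Cd83 rose by 0.75 ± 0.06 (adjusted p = 1.91e-05) and Cd86 by 0.45 ± 0.06 (0.00058). Both kept the call without each library, with adjusted p between 2.4e-07 and 1.64e-06 for Cd83 and between 0.000272 and 0.0123 for Cd86. For Cd83 these lie under the value from all libraries. Fits with a library left out take their spread mostly from all genes together, so these values do not measure how either gene varies between libraries. Cd274 was at 0.45 ± 0.14 (edgeR adjusted p = 0.0502), Cd40 at 0.20 (0.432) and Cd80 at 0.10 (0.614). The ratio of H2-Aa high to low cells in these cells was 1.45, 1.47 and 1.70 for Cd83 and 1.27, 1.20 and 1.30 for Cd86 in HFD, WD and CD, so that 3 of 3 libraries showed the direction.

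Cells with a Ccr2 UMI were compared with cells without one. Cd83 stood at 133, 1902 and 212 CPM with Ccr2 in HFD, WD and CD, against 276, 2255 and 279 CPM without it, and Cd86 at 86.05, 951 and 135 against 143, 1119 and 191 CPM. In edgeR's test 1810 of 11931 genes passed (7.46% higher, 7.71% lower), and Cd83 fell by 0.50 ± 0.12 (log2, SE; adjusted p = 0.0167) and Cd86 by 0.43 ± 0.10 (0.0099). The other 3 did not pass, with Cd274 at 0.41 ± 0.15 (0.101), Cd40 at -0.11 ± 0.14 (0.693) and Cd80 at 0.02 ± 0.14 (0.974). Without CD both calls were lost while the log2 fold changes stayed at -0.57 for Cd83 (edgeR adjusted p = 0.128) and -0.40 for Cd86 (0.175), and Cd86 also lost its call when cells were thinned (-0.28, 0.484).

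Because cells with Ccr2 are mostly H2-Aa high, the same comparison was made among H2-Aa high cells. There 1350 of 10861 genes passed edgeR's test (6.6% higher, 5.83% lower), Cd83 fell by 0.82 ± 0.12 (adjusted p = 0.000314) and Cd86 by 0.64 ± 0.10 (0.000738). Both kept the call without each library, with adjusted p of at most 0.000112 for Cd83 and 0.00536 for Cd86. Here too the spread comes mostly from all genes together when a library is left out. The values therefore do not measure how Cd83 and Cd86 vary between libraries. The ratio was 0.419, 0.709 and 0.580 for Cd83 and 0.545, 0.757 and 0.612 for Cd86 in HFD, WD and CD. Cd40 was at -0.13 (edgeR adjusted p = 0.583), Cd80 at 0.01 (0.980) and Cd274 at 0.21 (0.544). A missing Ccr2 UMI does not show a missing transcript, since cells with one were deeper, with medians of 3717, 20138 and 5103 UMIs against 2731, 11201 and 4112.

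**Figure D5:**
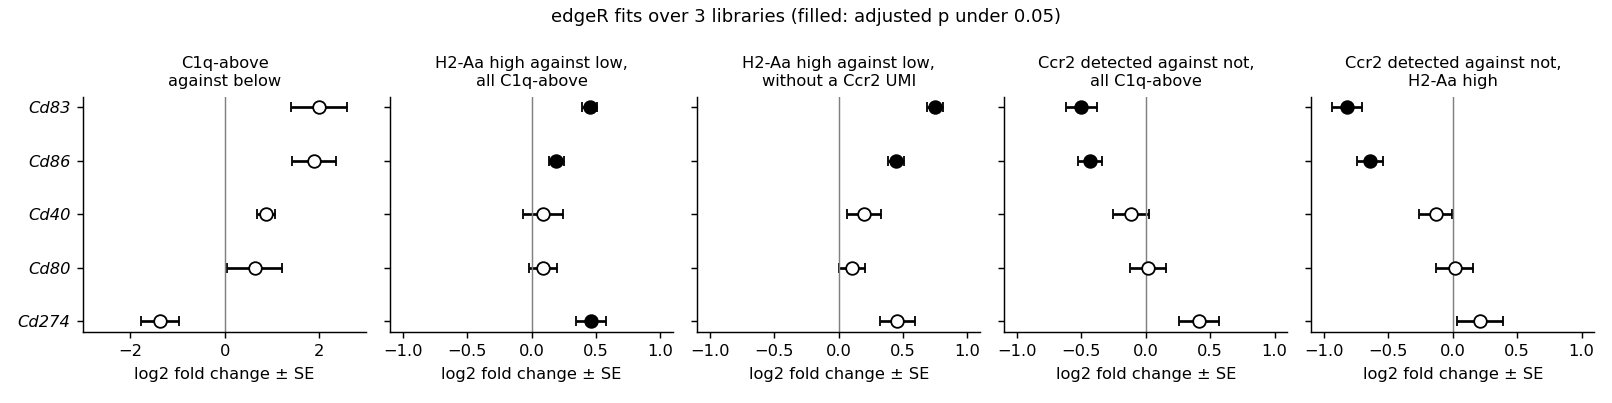
Log2 fold changes of the ligands in 5 edgeR fits over 3 libraries, with bars of 1 SE and filled points for an adjusted p under 0.05. Cd83 and Cd86 are filled and point the same way in the 4 fits within C1q-above cells, right for H2-Aa high and left for Ccr2, and no member is filled in the C1q fit.

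Markers of mature dendritic cells moved in part with Cd83. Their sum was 30.2 CPM in HFD, 37.0 in WD and 26.9 in CD in H2-Aa high cells with Ccr2, against 73.1, 34.2 and 45.6 CPM in H2-Aa high cells without Ccr2, and 24.3, 17.9 and 21.8 CPM in H2-Aa low cells without Ccr2. Of the 8 markers, 8, 7 and 5 had a UMI in H2-Aa high cells without Ccr2 of HFD, WD and CD, with Apol7c at 0 in WD and Ccr7, Cacnb3 and Serpinb6b at 0 in CD. Markers of conventional dendritic cells and of classical monocytes were higher with than without Ccr2 among H2-Aa high cells, the comparison in which Cd83 and Cd86 fell. The dendritic sum was 276, 262 and 212 CPM in H2-Aa high cells with Ccr2, against 122, 80.6 and 135 CPM in H2-Aa high cells without it, and 171, 50.03 and 74.2 CPM in H2-Aa low cells without Ccr2. The monocyte sum was 39.3, 233 and 378 CPM in H2-Aa high cells with Ccr2, against 2.48, 43.4 and 47.5 CPM in H2-Aa high cells without it, and 10.7, 58.3 and 63.7 CPM in H2-Aa low cells without Ccr2. Of 6 monocyte markers, 6 had a UMI with Ccr2 in each library, and in H2-Aa high cells without it Ly6c2 and Vcan were at 0 in HFD and Vcan in CD. Of 8 dendritic markers, 5, 8 and 7 had a UMI with Ccr2 and 5, 8 and 8 without it, with Xcr1 and Itgae at 0 in both for HFD. Endothelial markers summed to 333, 34.7 and 249 CPM in H2-Aa high cells with Ccr2, against 500.8, 30.3 and 352 CPM in H2-Aa high cells without Ccr2, and 362, 24.8 and 137 CPM in H2-Aa low cells without Ccr2. Leaving out cells with markers of another class kept both calls, Cd83 at 0.52 and Cd86 at 0.24 for H2-Aa (edgeR adjusted p = 0.000117 and 0.0169) and -0.45 and -0.44 for Ccr2 (0.00749 and 0.00269). The part of dendritic, monocyte and endothelial RNA in the differences between the restricted subsets was not tested.

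Cd40 and Cd80 followed neither property in the same way in every library. The ratio of H2-Aa high to low cells was 0.898 in HFD, 1.27 in WD and 0.666 in CD for Cd40 and 0.720, 1.09 and 0.921 for Cd80. The ratio of cells with to cells without Ccr2 was 0.945, 1.13 and 0.607 for Cd40 and 0.682, 1.22 and 0.691 for Cd80. In HFD the counts were small, with 36 Cd40 and 39 Cd80 UMIs in H2-Aa low cells and 26 and 19 in cells with Ccr2.

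Ligands were also compared within single cells, as a description of C1q-above cells thinned to 1000 UMIs. Cd86 was found in 15.6% of Cd83-detecting HFD cells, 60.03% of WD and 17.5% of CD, against 10.1%, 46.1% and 16.3% of cells without Cd83. Cd40 was found in 2.60%, 7.64% and 1.41% of Cd83-detecting cells, against 1.33%, 3.82% and 2.56% of the rest. In CD the intervals of both genes overlapped, at 14.3 to 21.2% against 14.6 to 18.1% for Cd86 and 0.569 to 2.89% against 1.88 to 3.40% for Cd40, and no direction is read there. In HFD the Cd40 intervals overlapped as well (1.31 to 4.61% against 0.825 to 2.03%).

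For each ligand, genes were ranked by how much higher they were in cells that showed the ligand than in cells that did not, taking the lowest of the ratios of the 3 libraries. For Cd83, of 7660 genes compared, the leading ones were Egr2, an early growth response factor (ratios of 2.01 in HFD, 1.89 in WD and 1.91 in CD), the cytokine gene Tnf (1.74, 1.85 and 1.61), the adhesion gene Icam1 (1.58, 1.88 and 1.66), Csrnp1 (1.80, 1.66 and 1.56) and the signalling inhibitor Socs3 (1.74, 1.67 and 1.51). For Cd86, of 5864 genes, they were the chemokine gene Cxcl14 (1.90, 1.43 and 1.93), Gm6377 (1.60, 1.39 and 1.64), the collagenase gene Mmp13 (1.89, 1.39 and 1.55), Lag3 (3.09, 1.71 and 1.37) and Zmynd15 (1.97, 1.31 and 1.66). Zmynd15 is on the list of mature dendritic cell markers. Intervals included 1 in HFD for Tnf (0.801 to 3.54), Csrnp1 (0.828 to 3.70) and Gm6377 (0.757 to 3.07), from 12, 12 and 11 UMIs. The same held in CD for Lag3 (0.796 to 2.26, from 20 UMIs), and no direction is read for these genes in those libraries.

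For Cd40, of 1629 genes compared in 32 HFD, 250 WD and 53 CD cells with the transcript, the leading ones were Ifit3 (10.5, 2.21 and 3.57), Ifit1 (8.04, 1.85 and 2.37), Ly6a (7.70, 1.79 and 7.08), Rsad2 (13.6, 1.77 and 2.88) and Fam26f (16.0, 1.66 and 5.99). The Ifit3 ratios rest on 39, 239 and 46 UMIs of that gene in the cells with Cd40. Ifit1, Ifit3 and Rsad2 encode antiviral proteins induced by interferon, and Ly6a encodes SCA-1, an interferon-induced surface protein that endothelial cells also carry. Endothelial markers moved with them, at 919, 47.0 and 440 CPM in cells with Cd40 against 414, 29.9 and 256 CPM in cells without. With cells of another class left out the endothelial sum was 52.8, 29.3 and 40.1 CPM against 160, 24.3 and 74.8. The ratios were then 9.0, 2.48 and 4.10 for Ifit3, 5.26, 2.33 and 3.12 for Ifit1, 13.5, 2.10 and 3.85 for Rsad2 and 9.29, 2.01 and 12.6 for Ly6a. The ratio of Fam26f is not given for that setting. The part of endothelial RNA in these ratios was not tested. For Cd80, of 1334 genes in 32 HFD, 235 WD and 30 CD cells, Cd209a, a lectin of monocyte-related dendritic cells, led with 6.35, 1.42 and 5.84. Pilra, S100a11, Emg1 and Hspd1 followed, each with an HFD interval that included 1. Conventional dendritic markers, Cd209a among them, summed to 494, 137 and 304 CPM in cells with Cd80 against 171, 117 and 133 CPM in cells without. Cd209a itself had 41, 262 and 30 UMIs in the cells with Cd80, so this sum in part repeats its ratio. The part of dendritic cells in the Cd80 ratios was not tested. For Cd274, 4 HFD and 1 CD cells with the transcript gave 32 genes to compare, and no likeness is read.

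Other ligands of the same kind were compared from a list of 15. Between HFD and CD, 0 of 9 measured members were higher and 1 lower, where 4.38% of all genes were higher and 5.85% lower. That was Tnfsf9, the ligand of the T cell receptor 4-1BB, at 12.7 CPM in HFD against 34.2 in CD, which is 2.69-fold lower (2.12 to 3.45). Vsir, the checkpoint ligand VISTA, stood at 316 CPM in HFD, 226 in WD and 281 in CD, and the adhesion ligand Cd48 at 319.9, 151 and 369.7 CPM. Icosl, the ligand of ICOS, had 25.2, 30.5 and 19.3 CPM, Cd276 3.33, 6.47 and 4.13, Lgals9 74.4, 75.2 and 86.8, and the poliovirus receptor gene Pvr 9.40, 35.5 and 9.48. Unlike the 5 ligands, Cd48, Vsir and Lgals9 were lower in WD than in CD, with ratios of 0.407, 0.802 and 0.867, while Tnfsf9 and Pvr had ratios of 3.77 and 3.75.

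In edgeR's test of H2-Aa high against low cells, Icosl rose by 0.94 ± 0.12 (adjusted p = 0.000504) and Tnfsf9 by 0.62 ± 0.15 (0.0197), and Lgals9 fell by 0.36 ± 0.08 (0.0113). They were 3 of 8 other ligands tested, where 8.62% of all genes rose and 7.09% fell. With Ccr2, 1 of 8 rose, Tnfsf14 by 1.36 ± 0.33 (edgeR adjusted p = 0.0172), where 7.46% of all genes rose and 7.71% fell. In C1q-above cells, 1 of 11 rose, Vsir by 1.82 ± 0.30 (edgeR adjusted p = 0.0398), where 2.99% of all genes rose and 4.37% fell. These genes and those in the next paragraph were picked from the lists after their values were seen.

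Between HFD and CD, MHC class II genes were mostly higher and immediate early genes lower in HFD, where 4.38% of all genes were higher and 5.85% lower. In the CD40 and NF-kB list 1 of 15 members was higher and 2 lower in HFD. Map3k14, the kinase of the alternative NF-kB pathway, had a ratio of 1.55, and the inhibitors Tnfaip3 and Nfkbia were 4.50-fold and 3.25-fold lower. In the interferon gamma list 1 of 10 genes was higher and 2 lower, Socs1 by 2.90-fold and Cxcl9 by 1.57-fold. MHC class II genes were higher in 6 of 7, with Ciita at 2.13, H2-DMb1 at 1.76, H2-Aa at 1.70 and Cd74 at 1.60. All 14 immediate early and dissociation genes were lower, among them Nr4a1 (7.90-fold), Ier3 (4.97-fold), Hspa1b (4.68-fold) and Fosb (4.53-fold). Their part in the Cd40 ratio was not tested. Of T cell receptors of these ligands, Cd28 stood at 3.03 CPM in HFD against 5.71 in CD, the 1 of 5 past the limit. None of 4 genes of ligand turnover was past it. In WD over CD, where 43.4% of all genes were higher and 25.3% lower, 14 of 15 CD40 and NF-kB genes were higher and 1 lower, as were 12 and 0 of 14 immediate early genes, 3 and 3 of 10 interferon gamma genes, 1 and 5 of 7 MHC class II genes, 3 and 0 of 4 turnover genes, 8 and 1 of 12 receptors and 7 and 2 of 13 other ligands.

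By cell class in edgeR's test, 8 of 15 CD40 and NF-kB genes rose and 0 fell in H2-Aa high cells, the class in which Cd83 and Cd86 rose, where 8.62% of all genes rose and 7.09% fell. They were led by Traf1, a CD40 adaptor and NF-kB target, at 1.09 ± 0.10 (adjusted p = 0.000101), and the NF-kB subunit gene Rel at 0.63 ± 0.08 (0.000654). In the interferon gamma list 4 of 10 rose, Cxcl9 by 2.11 ± 0.26 (edgeR adjusted p = 0.000439) and Irf8 by 0.55 ± 0.08 (0.00157) among them. MHC class II genes, among them H2-Aa, which defines the class, rose in 7 of 7. Of the receptor list 3 of 8 rose, of immediate early genes 4 of 14 and of turnover genes 0 of 4, and no gene of these lists fell. In cells with Ccr2, where 7.46% of all genes rose and 7.71% fell, Traf1 rose by 0.93 ± 0.11 (edgeR adjusted p = 0.000262), the 1 of 15 in its list that passed. With Ccr2, 2 of 10 interferon gamma genes, 2 of 9 receptors and 7 of 7 MHC class II genes rose, 0 of 14 immediate early genes passed, and 3 of 4 turnover genes fell. Those were Cmtm4 at -0.47 ± 0.14 (edgeR adjusted p = 0.0475), Cmtm6, whose product keeps PD-L1 at the surface, at -0.34 ± 0.08 (0.0152), and the ubiquitin ligase gene March8 at -0.37 ± 0.11 (0.0448). In C1q-above cells, where 2.99% of all genes rose and 4.37% fell, Cmtm6 rose by 0.93 ± 0.14 (edgeR adjusted p = 0.0346) and March8 by 1.04 ± 0.18 (0.0442), 4 of 14 immediate early genes rose, 3 of 9 receptors fell, and no gene of the CD40 and NF-kB, interferon gamma and MHC class II lists passed.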

How the data were processed

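Per the file headers, the deposited matrices hold whole-number UMI counts per gene and barcode, written by alignment software of version 3.0.1 for HFD and CD and 7.2.0 for WD, with no normalization. Genome build GRCm38 and Seurat are named per the submitters' processing notes, and other steps the authors took, cell filters among them, were not stated anywhere in the sources used here. The labels' protocols name the 10x 3' v2 kit for every library, which the WD barcodes go against: 92 of 6885 (1.34%) occur in the full barcode list of the CD files, against 100% of the HFD list. Library totals were 16630481 UMIs in HFD, 79269380 in WD and 17464149 in CD.

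From these counts, 30406 genes were matched across the libraries by Ensembl ID, and 0.0507%, 0.627% and 0.0485% of UMIs lay outside them. The limit on mitochondrial UMIs removed 11.9% of HFD, 26.1% of WD and 6.33% of CD barcodes. No doublets were removed in the reported values; leaving out the highest scores at 0.8% per 1000 cells was an alternative. UMIs were summed per library and cell class. Intervals are exact: Poisson for CPM, conditional binomial for ratios and Clopper-Pearson for shares. Cell classes were compared with edgeR 4.0.16 (quasi-likelihood, TMM, filterByExpr, library as block, two-sided) in R 4.3.3, since the 2 sums of a library come from the same cells' preparation. The 3 libraries are of 3 diets, so the spread between them includes diet, and nothing says that they are separate animals of 1 group. On simulated counts with known changes, the test recovered 78% of genes changed by 2 and 11% of those changed by 1 on the log2 scale in the C1q comparison, 100% and 95% in the H2-Aa comparison and 100% and 93% in the Ccr2 comparison. The simulation gave all genes the same spread and each change the same size in every library. The recovered shares hold for that setting and not for genes whose class difference varies between libraries. DESeq2 1.42.0, other thresholds, thinning, scaling and filters and leaving out each library were alternatives.

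The members, the gene lists and the rule for named genes (all 5 members, the other ligands with at least 20 UMIs in every library, the largest ratios of each list past 1.5-fold, and the 5 genes most like each member) were chosen with earlier results of these data known. The comparisons restricted to H2-Aa high cells and to cells without Ccr2 were chosen after seeing the data. Promoter windows are from RefSeq, and gene models from GENCODE vM21. The values of 1 gene of the lists are not reported here.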

Additional observations from a re-analysis of the deposited data

Results flagged for a closer look

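Several ratios between cell classes pointed opposite ways in different libraries, with counting intervals that leave out 1 on both sides. None of these differences was tested, since each diet has 1 library. Cd80 in C1q-above over C1q-below cells stood at 2.81 in HFD and 2.57 in CD but at 0.525 in WD. Cd40 in H2-Aa high over low cells stood at 1.27 in WD and 0.666 in CD. Cd40 in cells with over cells without Ccr2 stood at 1.13 in WD and 0.607 in CD, and Cd80 at 1.22 in WD and 0.691 in CD.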

How the results depend on the processing

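For C1q-above against below cells, 993 genes were called; with C1q at 0.1% and 1% it was 1636 and 527, with no filter on low counts 1517, in DESeq2 2383, and without each library in turn between 0 and 3791. For H2-Aa (1865), the count was 944 with the limit at 1%, 956 with thinned cells, 1087 in DESeq2 and between 888 and 1632 without each library, in all C1q-above cells or in those without Ccr2. For Ccr2 (1810), it was 378 with thinned cells, 1051 in DESeq2 and between 767 and 1699 without each library. With no replicate block for the library, 0 genes were called in each comparison, and 1466, 216 and 289 had an unadjusted edgeR p under 0.05; the C1q, H2-Aa and Ccr2 sums of 1 library share its depth and diet. With cells thinned, 1 member was past 1.5-fold in HFD against CD, Cd86 at 0.654, in place of Cd40 and Cd274. Members whose log2 fold change turned round had not passed the test, apart from Cd274 in H2-Aa high cells, and the cause was not tested. With H2-Aa at 1%, Cd40 was at -0.055, Cd80 at -0.27 and Cd274 at -0.17; in DESeq2 Cd40 was at -0.0084. Without cells of another class, Cd80 was at -0.39 for C1q and Cd40 at 0.060 for Ccr2, and with no replicate block Cd80 was at -0.32 for C1q. For Ccr2, Cd80 was at -0.33 with Ccr2 called after thinning, -0.16 and Cd274 at -0.86 with thinned cells, and Cd80 -0.020 with no filter and -0.15 in DESeq2. Without each library, log2 fold changes ran from -0.35 to 0.37 for Cd40, H2-Aa (-0.19 to 0.41 without Ccr2 cells), -0.13 to 0.15 for Cd80, H2-Aa, -0.47 to 0.13 for Cd40, Ccr2 (-0.28 to 0.010 in H2-Aa high cells), -0.46 to 0.15 for Cd80, Ccr2 (-0.40 to 0.14) and -0.18 to 0.49 for Cd274, Ccr2. The Cd274 ratio of HFD to CD was 5.70 with thinned cells. Of the members' fold changes under other settings, 160 kept direction and side of the threshold, 17 gained a call, 21 lost it and 20 turned round.

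In HFD and CD, Cd274, Cd80 and Cd40 rest on between 8 and 344 UMIs per library, which limits the precision of their ratios.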
